A study of Saccharomyces cerevisiae with 3 samples.

Results

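DST1, the gene missing from the dst1∆ mutant, and LEU2, URA3, MET15 and HIS3, the 4 auxotrophic marker loci of the yeast strain BY4741, were examined by where sequencing reads stopped and resumed. These 5 genes, of 6021 protein-coding genes in the RefSeq annotation, were chosen by name because the genotype of the strains names them. Each was read in a window of the sacCer2 build: DST1 (YGL043W) on chromosome VII from 416000 to 420000, LEU2 (YCL018W) on chromosome III from 90000 to 94000, URA3 (YEL021W) on chromosome V from 115000 to 118500, MET15 (YLR303W, MET17 in RefSeq) on chromosome XII from 731000 to 735000 and HIS3 (YOR202W) on chromosome XV from 720000 to 724000.

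The samples were 2 replicates of mononucleosomal DNA from dst1∆ chromatin after partial digestion with micrococcal nuclease (MNase), and 1 library of naked DNA from the wild type, purified from cross-linked cells before it met the enzyme. The wild type was BY4741, a MATa haploid with the alleles leu2Δ0, ura3Δ0, met15Δ0 and his3Δ1, and the dst1∆ strain was derived from it, so all 3 libraries shared the marker alleles. All cells grew in YPD, a rich medium that supplies what the markers can no longer make. The dst1∆ libraries also differ from the wild-type library in being chromatin rather than naked DNA, and at DST1 the mutation and the preparation cannot be told apart; wild-type chromatin was not analysed here.

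DST1 encodes TFIIS, a factor that binds stalled RNA polymerase II and stimulates cleavage of the nascent RNA so that elongation can go on. LEU2, URA3, MET15 and HIS3 encode enzymes of leucine, uracil, sulphur amino acid and histidine synthesis, and strains that carry deletions in them serve as hosts for plasmids and gene disruptions. MNase cuts linker DNA in preference to DNA wrapped on nucleosomes, while in naked DNA its cutting follows the sequence alone.

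The dst1∆ replicates held 10776646 and 9047739 nuclear reads and the naked DNA library 16618987, which gave 32.2-fold, 34.6-fold and 49.7-fold coverage of 12044507 bp. The mapped reads spanned 36 bp in dst1∆ replicate 1 and in naked DNA, which shared a sequencing run, and 46 bp in replicate 2, which came from another instrument. The difference between the dst1∆ replicates and the difference between runs therefore cannot be told apart. With 1 naked DNA library no comparison allowed a p-value, and intervals below are exact 95% Poisson intervals that cover counting error only. Nothing in the labels states whether the replicates were separate cultures.

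DST1 was the locus with reads in a single genotype. In both dst1∆ libraries 531 bp of chromosome VII, from 417880 to 418410, were covered by no read, whereas the naked DNA library of the wild type left 0 bases of it uncovered. Read by read, this stretch contained 0 reads in dst1∆ replicate 1, 0 in replicate 2 and 268 in naked DNA (237 to 302), the last at 142 different strand positions. The longer gap of replicate 2 alone, described next, held 2760 naked DNA reads. The 531 bp were chosen as the longest run without dst1∆ reads, so both counts of 0 follow from that choice. With a floor of 3 reads set in place of each 0, the scaled naked DNA count was 57.9-fold that of replicate 1. For replicate 2 it was 48.6-fold. The exact Poisson upper limit for 0 reads is 3.69, with which both ratios would be lower. These ratios describe the stretch and test nothing. At the density of the naked DNA library, 174 and 146 reads would have fallen there in the dst1∆ libraries. The longest run of uncovered bases in the whole DST1 window of naked DNA was 27 bp.

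The read-free region of replicate 2 was longer, with 931 bp from 417489 to 418419. Replicate 1 had 6 reads in the left portion of this region, and once these were bridged its gap ran for 915 bp, from 417496 to 418410. The edges of the 2 libraries then lay 7 bp apart on the left and 9 bp apart on the right. Over the 915 bp, replicate 1 had 6 reads (2.20 to 13.1), replicate 2 had 0 and naked DNA had 2755 at 331 strand positions. Scaled to library size, the count of replicate 1 was 0.336% of that of naked DNA (0.123 to 0.731%). Bridging keeps at most 6 reads per library inside a gap, so the low dst1∆ counts follow in part from that rule. At the naked DNA density 1786 and 1500 reads would have been found in replicates 1 and 2.

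The 6 reads of replicate 1 stood at 4 strand positions. A plus-strand read spanned 417585 to 417620 and another 417779 to 417814, 1 minus-strand read spanned 417838 to 417873, and 3 minus-strand reads spanned 417844 to 417879. Naked DNA had 0, 4, 78 and 56 reads at the same positions and strands, so it had reads at 3 of the 4. Those 3 read starts lay between 417696 and 417995, where 88.8% of the naked DNA starts of the gap fell. How many matches that density alone would give was not computed. Where these 6 reads came from was not tested.

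**Figure D1:**
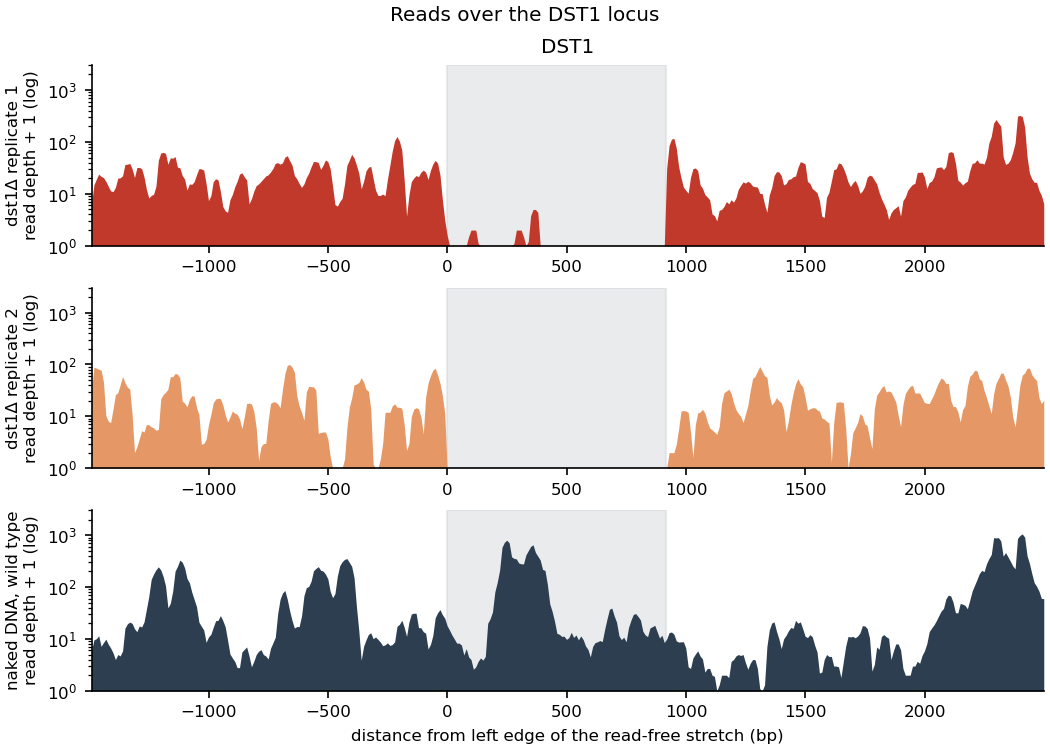
Depth of reads (reads covering each base plus 1, log axis) over the DST1 window in dst1∆ replicate 1, dst1∆ replicate 2 and naked DNA of the wild type, against distance in bp from the left edge of the gap. The shaded 915 bp hold 6 reads in replicate 1, 0 in replicate 2 and 2755 in naked DNA, most of which form a sharp block near 300 bp.

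Within the gap the naked DNA reads were far from even. Of the 2777 read starts (5′ ends) that fell in the 915 bp, 2467, or 88.8%, lay in the 3 consecutive 100-bp tiles between 417696 and 417995. The tile with most held 1257 starts and the last full tile on the right 49. The most used position was 417724 on the plus strand, with 193 reads or 7.01% of those in the gap. Turned into a signal of fragment centres, for which the genome mean is 100, the block formed a peak of 960 at 417810. The mean signal of naked DNA was 152 over the 915 bp but 48.5 over the 531 bp free of reads in both dst1∆ libraries, so the MNase-resistant block of wild-type DNA lay in the left portion of the missing region.

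Gaps of this kind were rare in the genome. Of 120436 bins of 100 bp, 8 (0.00664%) were uncovered in both dst1∆ libraries while at least 10 naked DNA reads fell in them, and 5 of these 8 were in the DST1 window. Without replicate 1 such bins made up 0.243% of the genome and without replicate 2 0.0141%. Stretches of at least 100 bp without dst1∆ coverage but with at least 50 naked DNA read starts numbered 6. The 531 bp of DST1, with 631 starts, were the longest, and another 158 bp of the same gap, from 417621 to 417778 with 1271 starts, had rank 4. The 4 outside DST1 were 205, 163, 157 and 110 bp long with 65, 93, 52 and 62 naked DNA starts, and the longest of them overlapped the listed gene YDL131W on chromosome IV.

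The reverse pattern was not found at any of the 5 loci. Bins with at least 10 reads in each dst1∆ library but no naked DNA coverage numbered 49 of 120436 (0.0407%), and 0 of them lay in the windows. Without dst1∆ replicate 1 the share was 0.122%. Stretches of at least 100 bp of that kind with at least 50 starts in each dst1∆ replicate numbered 2 in the genome, of 135 bp at YBL043W (61 and 214 dst1∆ starts) and 133 bp at YKL172W (53 and 128).

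At the 4 marker loci the gaps were shared by all libraries. Bins uncovered in all 3 made up 4.34% of the genome (5228 of 120436), and the longest such stretch, of 15923 bp, lay at an end of chromosome IX. The windows of LEU2, MET15, URA3 and HIS3 held 20 of 41, 24 of 41, 10 of 36 and 1 of 41 such bins, and that of DST1 held 0 of 41. Among the 690 stretches of at least 100 bp that were empty in every library, LEU2 ranked 27th, MET15 68th, URA3 133rd and HIS3 513th by length.

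The URA3 gap was 1105 bp in dst1∆ replicate 1, 1135 bp in replicate 2 and 1113 bp in naked DNA, and 1100 bp, from 115943 to 117042, were empty in all of them. At the mean depth of each library 953, 793 and 1469 reads would have been found there. URA3, which encodes orotidine-5′-phosphate decarboxylase, lost nearly its whole transcript: 922 of the 929 bp between its listed transcription start site (TSS) and polyadenylation site (pAS) lay in the gap, as did the 178 bp upstream of the TSS. The nearest listed ends of its neighbours remained. The pAS of GEA2, a gene for an exchange factor of Arf proteins, was 69 bp left of the gap, and the TSS of TIM9, a mitochondrial import chaperone, was 102 bp right of it.

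The MET15 gap was 2346 bp in dst1∆ replicate 1, 2424 bp in replicate 2 and 2410 bp in naked DNA. The shared part was 2345 bp, from 732285 to 734629, where 2067, 1728 and 3187 reads would have fallen at mean depth. The left edges of the 3 libraries lay within 8 bp of each other, while the right edge of replicate 1 was 57 bp left of that of naked DNA and 79 bp left of that of replicate 2. MET15 encodes O-acetylhomoserine sulphydrylase. In gene order it sits between YLR302C on the left and a tRNA gene on the right, after which comes ACO1, the gene for aconitase. Sequence that maps ambiguously leaves the same blank as a deletion, so how much of the gap is the met15Δ0 deletion was not tested.

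The HIS3 gap was the shortest and the most sharply bounded, with 180, 178 and 177 bp in dst1∆ replicate 1, replicate 2 and naked DNA. All 3 left edges fell within 1 bp and all 3 right edges within 3 bp, and 176 bp from 722262 to 722437 were empty in every library. At mean depth 126, 98.4 and 195 reads would have been present. HIS3 encodes imidazoleglycerol-phosphate dehydratase, and its gap was shorter than those of the other 3 markers in every library.

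LEU2, the gene for 3-isopropylmalate dehydrogenase, lay in the longest gap. Without interruption it ran for 5698 bp in dst1∆ replicate 1, 6965 bp in replicate 2 and 7678 bp in naked DNA, and 4988 bp, from 86780 to 91767, were empty in all. Replicate 2 had 3 reads inside, each alone at its position, at 91768 to 91813, 92159 to 92204 and 92281 to 92326, where naked DNA had 0 at the same strand positions. Once these were bridged, the last uncovered base on the right was 92477 in all 3 libraries. Replicate 1 had 3 reads between 86718 and 86779.

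The left border of the LEU2 gap cannot be assigned to the leu2Δ0 allele. In gene order the tRNA gene SUP53 and the Ty element genes YCL020W and YCL019W precede LEU2, and since unambiguous reads alone were kept, a Ty copy and a deletion leave the same blank and cannot be told apart. On the right, 109 of the 1473 bp between the TSS and pAS of LEU2 remained outside the gap. Reads began there next to the end of the convergent gene NFS1, which encodes the mitochondrial cysteine desulphurase, and the last 40 bp up to its pAS lay inside the gap.

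**Figure D2:**
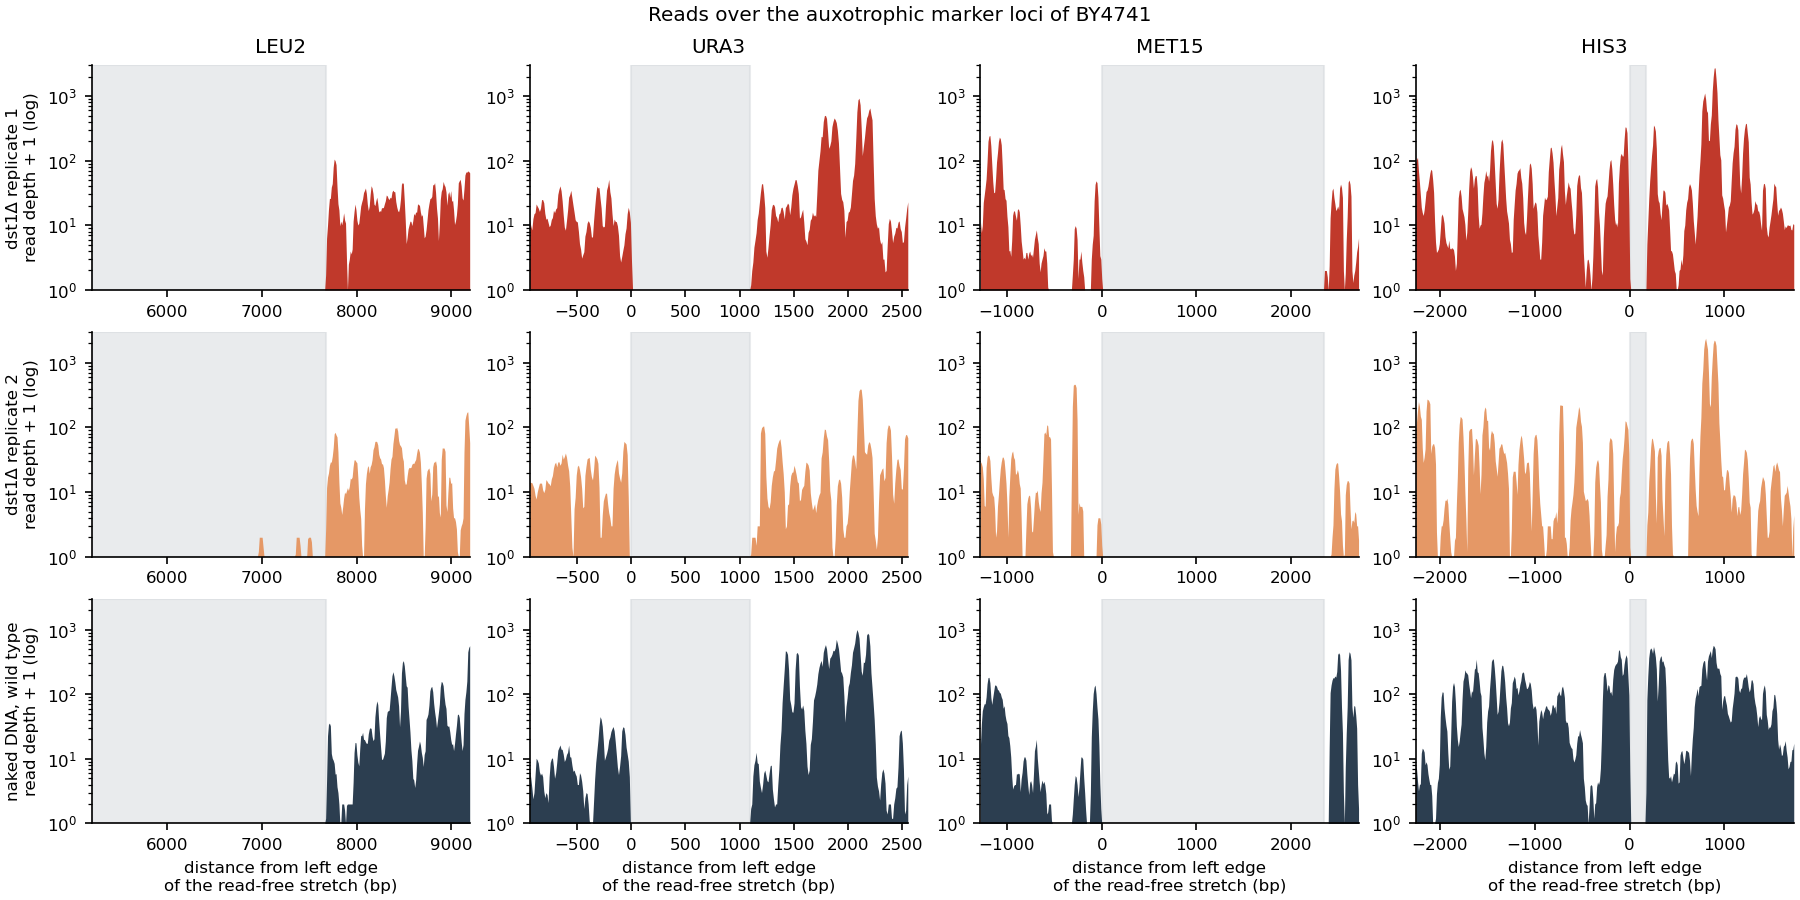
Depth of reads (reads covering each base plus 1, log axis) at LEU2, URA3, MET15 and HIS3 in dst1∆ replicate 1, dst1∆ replicate 2 and naked DNA of the wild type, against distance in bp from the left edge of the gap. The shaded gaps, shared by the 3 libraries, are 7675 bp at LEU2 (shown from the start of its window), 1100 bp at URA3, 2345 bp at MET15 and 176 bp at HIS3; the 3 isolated reads at LEU2 belong to replicate 2.

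Few other genes resembled these. Of 1971 genes with a listed TSS and pAS, 1787 had no base uncovered in all 3 libraries, 19 had over 10% and 4 over 50%. URA3 came first with 99.2% and LEU2 second with 83.2%, followed by TIF2 (56.9%), RPL1A (50.2%), RPL4A (46.1%), RPL1B (45.5%) and SSA1 (43.5%). The last 5 are members of duplicated gene families, namely translation initiation factor eIF4A, ribosomal proteins and Hsp70 chaperones. URA3 had 0 reads in each library. LEU2 retained 89 and 52 in the dst1∆ replicates and 45 in naked DNA, and TIF2 retained 174 and 429 in the dst1∆ replicates and 207 in naked DNA. DST1, MET15 and HIS3 have no TSS in the portion of the list used.

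The chromatin next to the gaps was then measured as the mean signal over 500 bp outside each edge, where a fragment centre was placed 73 bp downstream of every read start. Both dst1∆ replicates lay below naked DNA at 5 of the 10 flanks and above it at 4, and at 1 they lay on either side. The 5 include the left of DST1, where naked DNA has no gap and the means are not fully alike. Across 23377 windows of 500 bp of the genome, both were below in 28% and above in 55.4%. The naked DNA signal itself varied from 11.3 to 216 over the flanks, and the dst1∆ signal from 14.4 to 118 in replicate 1 and from 20.3 to 102 in replicate 2.

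The edges of DST1 differed from each other. Left of the gap, towards the divergent gene RNA15, which encodes a subunit of the mRNA cleavage factor, the signal was 118 and 59.5 in the dst1∆ replicates and 131 in naked DNA. Right of it, it was 56.6 and 74.0 in the dst1∆ replicates and 15.8 in naked DNA, that is 1.85 and 2.23 higher on the log2 scale. The 500 bp on the right held 268 and 205 dst1∆ reads, where 416 and 342 fall at mean depth, and 60 naked DNA reads, where 642 do.

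Right of LEU2 and on both sides of URA3 the 2 replicates were closer to each other than to naked DNA. The same held right of DST1, right of MET15 and on both sides of HIS3. Right of LEU2 the signal was 96.0 and 77.9 in dst1∆ and 28.7 in naked DNA. Left of URA3 it was 58.7 and 73.5 in dst1∆ and 34.9 in naked DNA. Right of URA3 it was 76.9 and 68.6 in dst1∆ and 143 in naked DNA, so the same gap had an MNase-sensitive flank on one side and a resistant flank on the other.

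At HIS3 both flanks were MNase-resistant in naked DNA. The signal was 115 and 52.2 in dst1∆ and 216 in naked DNA on the left, towards the divergent gene MRM1, and 95.7 and 60.6 in dst1∆ and 186 in naked DNA on the right. Right of MET15 it was 50.0 and 20.3 in dst1∆ and 158 in naked DNA. Left of MET15 it was 14.4 in dst1∆ replicate 1, 54.1 in replicate 2 and 26.2 in naked DNA, so the replicates disagreed in direction. There replicate 2 had 475 reads at 28 strand positions with up to 91 at 1 position, against 70 reads at 26 positions in replicate 1. The left border of LEU2 gave 21.6 and 102 in dst1∆ and 11.3 in naked DNA, and whether it bounds the deletion or the Ty copy cannot be told apart.

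**Figure D3:**
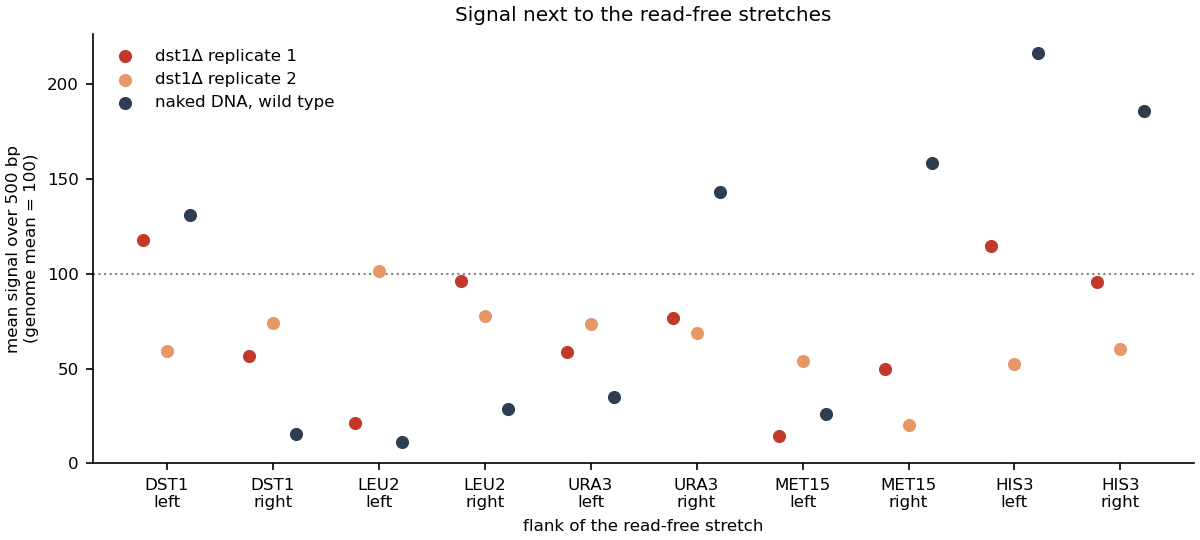
Mean fragment-centre signal (genome mean of 100, dotted line) over 500 bp outside each of the 10 edges, with 1 point per library: dst1∆ replicate 1, dst1∆ replicate 2 and naked DNA of the wild type. Both dst1∆ points lie below naked DNA at 5 flanks (DST1 left, URA3 right, MET15 right and both of HIS3) and above it at 4 (DST1 right, both of LEU2 and URA3 left).

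The first nucleosome-sized peak outside an edge was placed within 20 bp in the 2 dst1∆ replicates at 6 of the 10 flanks. With a nucleosome's length counted around each centre, the number was 3. In the whole genome 75.5% of replicate 1 peaks had one of replicate 2 within 20 bp. There any peak of replicate 2 counted, not the first outside an edge, so the flank number cannot be set directly against that share. Within 73 bp of an edge reads of 1 strand alone can contribute to the signal, so peaks nearer than that are less certain. Of the 6 flanks, this applies to the left of DST1 (25 and 5 bp) and the right of HIS3 (12 bp in both replicates). Right of LEU2 the first peak stood at 142 bp in both dst1∆ replicates (heights 253 and 196) and at 412 bp in naked DNA (74.1). Left of URA3 it stood at 102 bp in both (63.7 and 179) and at 12 bp in naked DNA (53.1). Both of these chromatin peaks occupied DNA at which the naked DNA library had no peak within 20 bp.

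Right of URA3 the first peak was at 157 and 167 bp in dst1∆ and at 387 bp in naked DNA. Measured from the TSS of TIM9, these were 55 and 65 bp downstream in dst1∆ (heights 149 and 141) and 285 bp in naked DNA (667). The next peak was at 255 bp in replicate 1 and 215 bp in replicate 2. TIM9 thus had a peak just inside its transcribed region in both dst1∆ replicates. The URA3 gap lies upstream of TIM9 in every library, so whether the gap affects this peak was not tested. Farther right, towards RPR1, which encodes the RNA of RNase P, dst1∆ replicate 1 had peaks of 927 at 117770 and 1013 at 118080, replicate 2 had 213 and 470 within 20 bp of these, and naked DNA had 823 and 900 within 10 bp.

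At DST1 the first peak on the right was 179 and 209 bp from the edge in dst1∆ (heights 66.6 and 107) and naked DNA had none within the 500 bp. On the left it was 25 and 5 bp from the edge in dst1∆ (115 and 171) and 75 bp in naked DNA (110). Over its whole window 15 of the 18 peaks of replicate 1 had one of replicate 2 within 20 bp and 6 had one of naked DNA. In replicate 1 and in naked DNA the highest peak of the window stood at 419840, with 622 and 998, while replicate 2 had 133 at 419830. A peak of 717 in naked DNA at 417010 was met by lower ones of 221 and 86.3 at 417040 and 417060 in dst1∆, and the peak of 294 and 106 in dst1∆ at 417230 and 417210 had 58.8 in naked DNA.

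**Figure D4:**
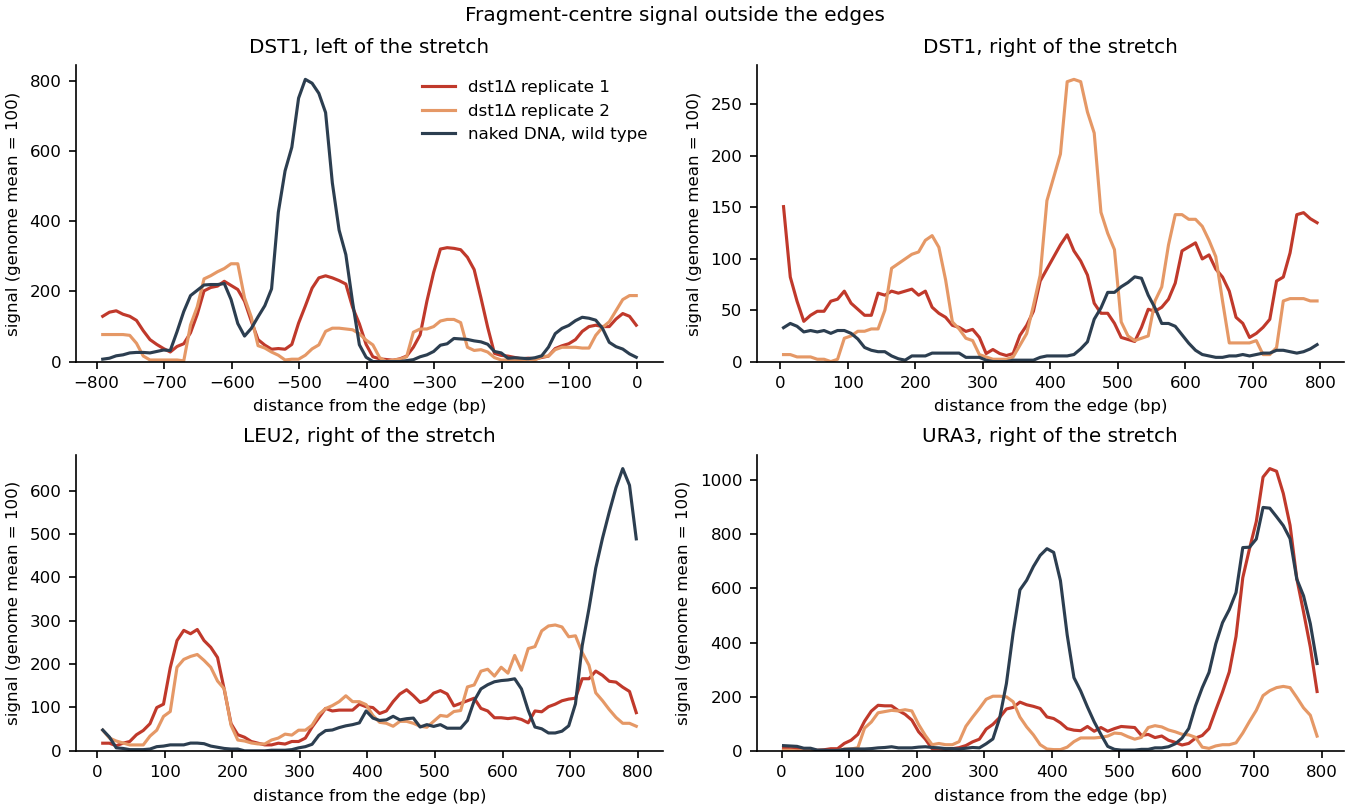
Fragment-centre signal (genome mean of 100) against distance in bp from the edge, left and right of the DST1 gap and right of the LEU2 and URA3 gaps, with lines for dst1∆ replicate 1, dst1∆ replicate 2 and naked DNA of the wild type. Right of LEU2 both dst1∆ lines peak at 142 bp, and right of URA3 at 157 and 167 bp, where naked DNA has no peak; vertical scales differ between panels.

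Peak positions were shared between the dst1∆ replicates more often than with naked DNA. Over the 5 windows 52 of 64 peaks of replicate 1 (81.2%) had one of replicate 2 within 20 bp, beside 75.5% in the genome. For naked DNA it was 24 of 64 peaks of replicate 1 (37.5%, genome 32.1%) and 16 of 65 peaks of replicate 2 (24.6%, genome 23.8%). By locus, the replicates shared 17 of 19 peaks at HIS3, 11 of 14 at URA3, 5 of 7 at MET15 and 4 of 6 at LEU2. These shares were close to those of the genome.

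Heights were compared by correlation. The Pearson correlation of the signal at 10-bp steps outside the gaps was 0.80 between the dst1∆ replicates at HIS3, 0.68 at URA3, 0.55 at LEU2, 0.33 at DST1 and 0.14 at MET15, over 384, 241, 153, 309 and 167 positions (0.64 in the genome). Between replicate 1 and naked DNA it was 0.59 at HIS3, 0.83 at URA3, 0.39 at LEU2, 0.70 at DST1 and 0.72 at MET15 (0.71 in the genome). Between replicate 2 and naked DNA it was 0.37, 0.40, 0.16, 0.12 and -0.01 at the same loci (0.38 in the genome). Replicate 1 was thus closer to replicate 2 than to naked DNA at HIS3 and LEU2, and closer to naked DNA at URA3, DST1 and MET15. Neighbouring positions share reads, and replicate 1 shares its sequencing run and read length with naked DNA.

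Reads on either side of the HIS3 gap were used to ask what lay across it. The reads were single-end, so the length of their fragments was not measured, and a nucleosome's length was assumed. On that assumption, plus-strand reads that end shortly left of a gap come from fragments reaching over it. Minus-strand reads shortly right of it do too if the outer sequences are joined. Shorter fragments could end before the edge. Counted within about a nucleosome's length of the edges, these were 383 on the left and 372 on the right in dst1∆ replicate 1, 130 and 66 in replicate 2, and 418 and 459 in naked DNA. At points every 500 bp along the genome with at least 20 such reads, the same pair of counts was compared. It differed by over 4 times at 8.26% of points in replicate 1, 41.2% in replicate 2 and 2.61% in naked DNA. The HIS3 counts of every library lay within that limit, as most points of the genome did. Such counts therefore cannot by themselves show that the edges are joined.

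With the 176 bp taken out, fragment centres from both strands fell together at HIS3. After smoothing, the plus-strand centres of dst1∆ replicate 1 were highest 8 bp and the minus-strand centres 14 bp right of the joined edges, and in replicate 2 they were highest 7 and 11 bp right. In naked DNA the highest values within 100 bp were 36 bp left for the plus strand and, at the limit of that range, 100 bp right for the minus strand. In sacCer2 coordinates the same centres appear as peaks on either border, at 722270 (319 and 202) and 722450 (274 and 126) in dst1∆, 180 bp apart. With the edges joined, a peak common to both replicates and both strands thus sat on the junction of the his3Δ1 allele, with further ones at 722120 and 722110 on its left (332 and 125). Centres around the junction were not particular to chromatin. Naked DNA had 182 from the plus strand and 231 from the minus strand, beside 182 and 156 in replicate 1 and 100 and 60 in replicate 2. These counts are not scaled to library size.

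**Figure D5:**
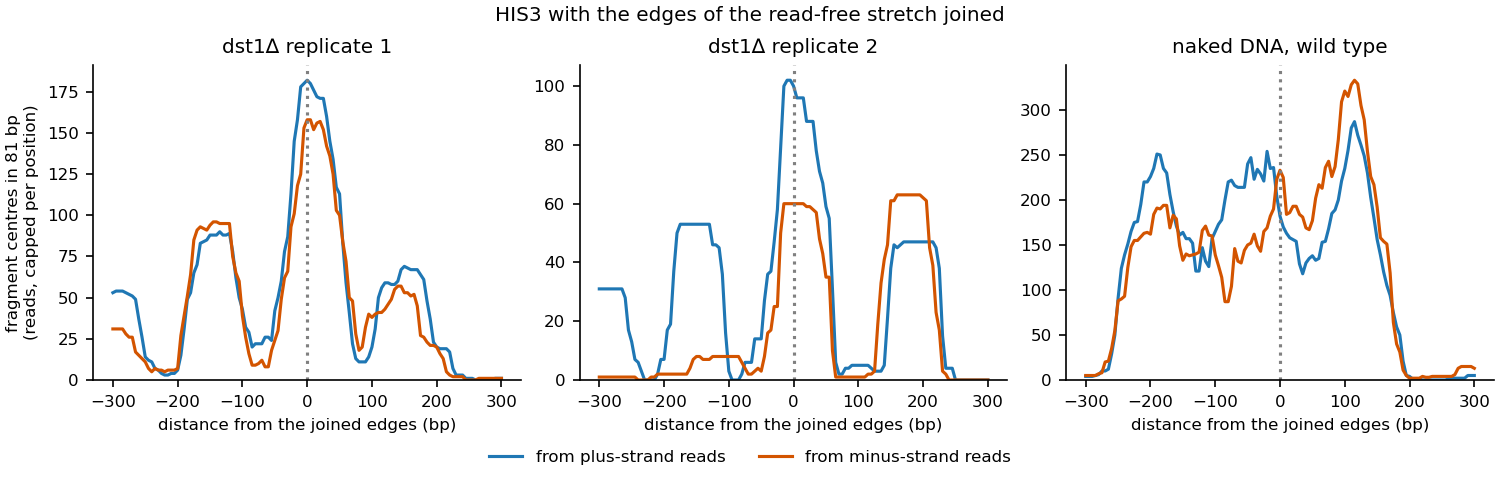
Fragment centres of plus-strand and minus-strand reads (reads in 81 bp, capped at each strand position) around HIS3 with the 176-bp gap removed, against distance in bp from the joined edges (dotted line), for dst1∆ replicate 1, dst1∆ replicate 2 and naked DNA of the wild type. In both dst1∆ libraries the centres from both strands form a block that, after smoothing, is highest 7 to 14 bp right of the junction. Naked DNA also has many centres there (182 plus-strand and 231 minus-strand), but its highest values within 100 bp lie elsewhere. Vertical scales differ.

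No peak on the junction itself that both strands and both dst1∆ replicates shared was seen at URA3, MET15 or DST1. The joined edges of LEU2 were not profiled. In naked DNA at URA3, plus-strand centres were highest 13 bp and minus-strand centres 6 bp left of the junction. Agreement of the strands at a junction was thus not particular to chromatin. At URA3 the corresponding counts were 5 and 5 in dst1∆ replicate 1, 1 and 1 in replicate 2, and 42 and 14 in naked DNA. Few chromatin reads thus lay where fragments of the assumed length would reach over the gap. At MET15 the counts were 53 and 22, 3 and 0, and 157 and 137. At LEU2, whose left border is not assigned, they were 30 and 12, 5 and 21, and 40 and 36. At DST1 they were 52 and 119 in replicate 1 and 86 and 3 in replicate 2, a difference of 2.29-fold and 28.7-fold in opposite directions, beside the 41.2% of points past 4 times in replicate 2. With the edges of DST1 joined, the centres of replicate 1 were highest 21 bp left of the junction on the plus strand and 23 bp left on the minus strand, whereas replicate 2 had 83 plus-strand and 3 minus-strand centres around the junction. What replaced DST1 is not given in the sources used here, and sequence absent from sacCer2 could not be mapped.

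Right of HIS3 the highest peak of the 5 windows in dst1∆ stood at 723100 in replicate 1 (1261) and 723110 in replicate 2 (1246), on the side of DED1, the gene for an RNA helicase of translation initiation. Naked DNA had 721 at 723100. At 723430 the replicates had 804 and 104 and naked DNA had 534 at 723450. Replicate 2 also had 170 bp without any read from 722711 to 722880, 273 bp right of the HIS3 gap and between HIS3 and DED1, where 52 read starts of replicate 1 and 39 of naked DNA fell.

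MET15 had 2 further blanks on its left. Between 731761 and 731960, 200 bp were free of reads in all 3 libraries, 324 bp from the main gap. Between 732089 and 732229, 141 bp were free of reads in dst1∆ replicate 2 only, where replicate 1 had 57 read starts and naked DNA 178. The 500 bp measured left of MET15 overlapped both blanks. Besides these and the blank of HIS3, no library had another of at least 100 bp in the windows outside the bridged gaps.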

How the data were processed

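Reads were deposited as BED files, which the authors made by aligning single-end reads to sacCer2 with GEM, keeping unambiguous reads only and allowing a few mismatches. Repeated reads were present. The deposited score column holds a display value, which was not used; position and strand were. Chromosome ends and gene names came from the files and from RefSeq (names and gene order only); TSS and pAS came from the study's gene list, held in part, which names no build and was taken as sacCer2.

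A stretch was read-free where no read covered a base, with its first and last uncovered base given; distances run from the covered bases beside it. Bridged gaps join stretches of at least 60 bp while each library keeps at most 6 reads inside. This, the count of at most 4 reads, the counts across the joined edges and the joined profiles were added after the data were seen, and the bridged gaps defined the flanks. For the signal, reads per strand position were capped at a Poisson limit of 1e-10 (9, 9 and 11 reads in dst1∆ replicates 1 and 2 and naked DNA), centres were set 73 bp from the read start and counted over 81 bp, and the genome mean was set to 100. Peaks of at least 20 were taken every 10 bp after smoothing (SD of 20 bp), at least 100 bp apart. On simulated, evenly spaced nucleosomes away from the simulated gaps, the steps found 100% of 1783 within 20 bp. Gap edges were placed with an error of at most 45 bp where every read over a joint was left out. The simulation had no sequence preference of MNase, and peaks close to an edge were not part of this check.

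The members, the lists and the windows were chosen with earlier results of these data known. Named genes were the 5 loci, their neighbours, genes at the longest stretches of each pattern (up to 5), and up to 5 listed genes with the largest share uncovered. Samples were grouped by their labels as dst1∆ (n = 2) and naked DNA (n = 1), and no test was run. Alternatives changed what counts as empty, the depth, the duplicates, the bin and flank size, the scaling, the peak limits and the replicates used. Scripts ran under Python 3.11.15. Tables were handled in pandas 2.3.3 and numpy 2.4.6, smoothing and intervals in scipy 1.17.1, and figures in matplotlib 3.10.9.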

Additional observations from a re-analysis of the deposited data

Results flagged for a closer look

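Reads on the mitochondrial chromosome, which belongs to no comparison above, numbered 0 in dst1∆ replicate 1, 1285 in dst1∆ replicate 2 and 0 in naked DNA. Replicate 2 was thus the only library with any such read.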

How the results depend on the processing

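No paired analysis was possible because the naked DNA library is the only one of its group, so the groups share fewer than 2 replicate numbers. Of 68 recomputed values, 45 moved by less than the spread between replicates, or 1.5 times for a count, and 23 moved further; the cause was not tested beyond what each change makes empty.

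The DST1 gap was 922 bp with up to 4 reads counted as empty and 915 bp with stray reads bridged, and 531 to 931 bp when 1 dst1∆ replicate was left out, the longer value without replicate 1. LEU2 gave 7681 bp, 7675 bp and 5698 to 6965 bp in the same order. With up to 4 reads counted as empty, URA3 gave 1122 bp and MET15 2424 bp. With read starts only, URA3 gave 1122 bp and HIS3 178 bp. Leaving out a replicate gave 1100 to 1113 bp at URA3, 2346 to 2402 bp at MET15 and 176 to 177 bp at HIS3.

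Naked DNA reads in the DST1 gap were 142 with 1 read per strand position, 2755 with stray reads bridged and 268 to 2760 when a dst1∆ replicate was left out, the larger value without replicate 1. Bins empty in dst1∆ only made up 0.0141% of the genome by read starts, 0.00166% with at least 50 naked DNA reads, and 0.0141 to 0.243% with a replicate left out, the larger without replicate 1. Bins empty in naked DNA only made up 0.104% by read starts, 0.00498% at 200 bp, 0% with at least 50 dst1∆ reads, and 0.059 to 0.122% with a replicate left out, the larger without replicate 1. With a nucleosome's length counted around each centre, 3 flanks instead of 6 had a first peak placed alike in the dst1∆ replicates.

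The count of flanks below naked DNA stayed between 4 and 6. Thinning every library to the read number of the shallowest gave 176 bp at HIS3 and 1105 bp at URA3.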
